A study of Mus musculus with 12 samples.

Results

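The genes of the mouse beta-globin locus were followed in differentiating erythroid cells that had received a zinc chelator, an siRNA against the zinc importer ZIP10, or both. The 6 genes were Hbb-y, Hbb-bh0, Hbb-bh1, Hbb-bh2, Hbb-bs and Hbb-bt, out of 55487 genes listed per library. They were taken by symbol as the embryonic and adult genes of the locus, and each symbol matched 1 gene. Hbb-bs and Hbb-bt were also summed as adult transcript, because they share sequence, and Hbb-bh1 and Hbb-y were summed as embryonic transcript.

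All libraries came from G1E-ER4, a clonal line of mouse erythroid progenitors. It has no GATA1 of its own and instead expresses a GATA1 fusion that estradiol switches on, and all cultures received 100 nM β-estradiol to start differentiation. The groups were siZIP10 plus DTPA (n = 3), siControl plus DTPA (n = 2), siZIP10 (n = 3) and siControl (n = 3). siZIP10 is an siRNA against Slc39a10, the gene of ZIP10, and siControl a control siRNA, each delivered in 2 transfections 24 h apart. The zinc chelator DTPA, which does not readily enter cells, was present at 25 µM from the second transfection to harvest 24 h later. All groups therefore share the transfections, the estradiol and a medium with erythropoietin and Kit ligand. The values given for siControl plus DTPA replicate 3 equalled those of siZIP10 replicate 1 for all 55487 genes, so that library was left out and 11 were used. The labels call the replicates biological; whether they were separate cultures is not stated further, and p-values measure the spread between these libraries.

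Levels are TPM, transcripts of a gene per 1e+06 transcripts, which are scaled by gene length. Changes are differences between group means of log2(TPM + 1), given with their standard error (SE) in the fit, and adjusted p-values are those of limma over all 11379 genes tested, with a threshold of 0.05. Reads recovered from the TPM values put the depth at 19.63 to 24.69 M (1 M is 1e+06) per library. The target Slc39a10 stood at 5.1 ± 0.228 TPM with both treatments, 21.1 ± 1.19 TPM with DTPA alone, 0.627 ± 0.182 TPM in siZIP10 and 2.62 ± 0.271 TPM in siControl (SD). It was thus lower with siZIP10 than with siControl at the same DTPA level, but with both treatments it lay above every siControl library without DTPA (4.93 to 5.36 TPM against 2.31 to 2.78 TPM). Mt2, a metallothionein gene that zinc induces, stood at 22.1 and 17.1 TPM in the groups with DTPA, against 2413 TPM in siZIP10 and 2039 TPM in siControl. The 6 erythroid markers were above 0 in the files and summed to 3536 to 3643 TPM in siZIP10 plus DTPA against 4524 to 4783 TPM in the other groups. The double-treated libraries stood apart in make-up: mitochondrial rRNA was 1.43% to 1.45% of their TPM, against 0.262% to 0.421% elsewhere. In bulk RNA, fewer cells that make a transcript and less of it per cell cannot be told apart.

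Haemoglobin is built from alpha-like and beta-like globin chains. In the mouse, the embryonic beta-like genes Hbb-y and Hbb-bh1 are used in the primitive red cells of the early embryo and the adult genes Hbb-bs and Hbb-bt in definitive red cells of the fetal liver and bone marrow. A distant enhancer, the locus control region, serves all of them, and repressors such as BCL11A silence the embryonic genes in definitive cells.

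On mm10 chromosome 7 all 6 genes lie on the minus strand in the order of their names above, without overlap with any other annotated gene. Hbb-y (ENSMUSG00000052187.4) spans 103851749 to 103853216. The start of the pseudogene Hbb-bh0 (ENSMUSG00000085700.1, 103850020 to 103850148) is 3.07 kb further along, that of Hbb-bh1 (ENSMUSG00000052217.6, 103841637 to 103843164) 10.1 kb and that of Hbb-bh2 (ENSMUSG00000078621.2, 103839124 to 103840520) 12.7 kb. Hbb-bs (ENSMUSG00000052305.6, 103826534 to 103828096) starts 25.1 kb from Hbb-y and Hbb-bt (ENSMUSG00000073940.3, 103812524 to 103813996) 39.2 kb from it. Among the main transcripts of the 5 protein-coding genes, Hbb-bs and Hbb-bt were 92.7% identical and 65.8% of the 50-base windows of Hbb-bs were also found in Hbb-bt. Every other pair was 67.3% to 73.7% identical and shared no such window. Reads could thus be divided wrongly between Hbb-bs and Hbb-bt, or go uncounted where they match both. Hbb-bh1 and Hbb-y are separable at that length. The adult genes also differ between mouse strains, and the strain of the line is not given in the sources used here, so that the adult levels and the shares below rest on reads matched to the mm10 copies.

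The promoters of an embryonic gene and of both adult genes are shown because the embryonic and adult genes behaved differently below. No window was available for Hbb-bh1, so Hbb-y is the embryonic gene shown and does not stand for Hbb-bh1. Each is the 160 bases before the RefSeq start site (GRCm38.p6), written along the gene. These start sites differ from the gene starts above. The window of Hbb-bs lies wholly, and those of Hbb-y and Hbb-bt in part, within the gene spans given there. Capitals mark CACCC, the core bound by KLF1-type factors, CCAAT, the core bound by NF-Y, and TGACC, found in elements of nuclear receptors and, followed by A, in those of BCL11A, on either strand.
Hbb-y, chr7:103853208-103853367, minus strand: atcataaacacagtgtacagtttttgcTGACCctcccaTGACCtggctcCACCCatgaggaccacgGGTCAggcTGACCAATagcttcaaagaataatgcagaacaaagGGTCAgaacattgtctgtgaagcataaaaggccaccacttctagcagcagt
Hbb-bs, chr7:103827929-103828088, minus strand: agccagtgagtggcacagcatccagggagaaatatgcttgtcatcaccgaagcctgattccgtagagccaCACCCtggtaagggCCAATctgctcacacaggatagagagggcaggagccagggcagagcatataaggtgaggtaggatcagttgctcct
Hbb-bt, chr7:103813924-103814083, minus strand: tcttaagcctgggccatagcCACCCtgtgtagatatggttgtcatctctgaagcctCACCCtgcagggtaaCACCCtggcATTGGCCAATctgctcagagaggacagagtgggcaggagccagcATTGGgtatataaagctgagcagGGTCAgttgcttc

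All 3 windows held CACCC (1 in Hbb-y, 1 in Hbb-bs, 3 in Hbb-bt) and CCAAT (1, 1 and 3), cores that 39.2% and 25.6% of the 32851 mouse promoter windows of this length hold. TGACC occurred 5 times in the Hbb-y window, where 1 match overlaps the CCAAT core, 0 times in that of Hbb-bs and 1 time in that of Hbb-bt. At least 1 TGACC is found in 24.5% of all windows and 4 or more in 0.0761%. GATAA, the core of GATA sites, was not found in these 3 windows, and 14.3% of all windows hold it. The window of Hbb-bh2 held none of the 4 cores. These are letter matches and describe no binding.

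The embryonic genes rose with DTPA and rose much further when siZIP10 was given as well. Hbb-bh1 encodes a beta-like chain of embryonic haemoglobin and was the most abundant embryonic transcript in every library. It stood at 5551, 5462 and 5248 TPM in siZIP10 plus DTPA, 1143 and 1134 TPM in siControl plus DTPA, 131.6, 145 and 139 TPM in siZIP10, and 139.6, 145 and 142 TPM in siControl. The DTPA groups did not overlap with each other or with the cultures without DTPA, whereas siZIP10 and siControl did overlap. Against siControl, Hbb-bh1 was 38.1-fold higher in mean TPM with both treatments (log2 change 5.24, SE 0.04, adjusted p = 1.57e-14, limma) and 7.99-fold higher with DTPA alone (2.99, SE 0.04, adjusted p = 2.99e-11). With the knockdown alone the change was −0.04 (SE 0.04, adjusted p = 0.475).

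Hbb-y encodes the epsilon-like chain of embryonic haemoglobin. It stood at 251 to 259 TPM in siZIP10 plus DTPA, 101 and 108 TPM in siControl plus DTPA, 27.3 to 32.1 TPM in siZIP10 and 17.3 to 28 TPM in siControl. As for Hbb-bh1, the double-treated libraries were highest and those with DTPA alone next, at lower levels, with a rise of 11.1-fold with both treatments (3.44, SE 0.13, adjusted p = 2.6e-09) and 4.53-fold with DTPA alone (2.16, SE 0.15, adjusted p = 4.59e-06). The knockdown alone gave 0.39 (SE 0.13, adjusted p = 0.0454). That call failed in 14 of the 22 other settings tried (9 of these 14 omitted 1 library each), and the libraries of siZIP10 and siControl overlapped.

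**Figure D1:**
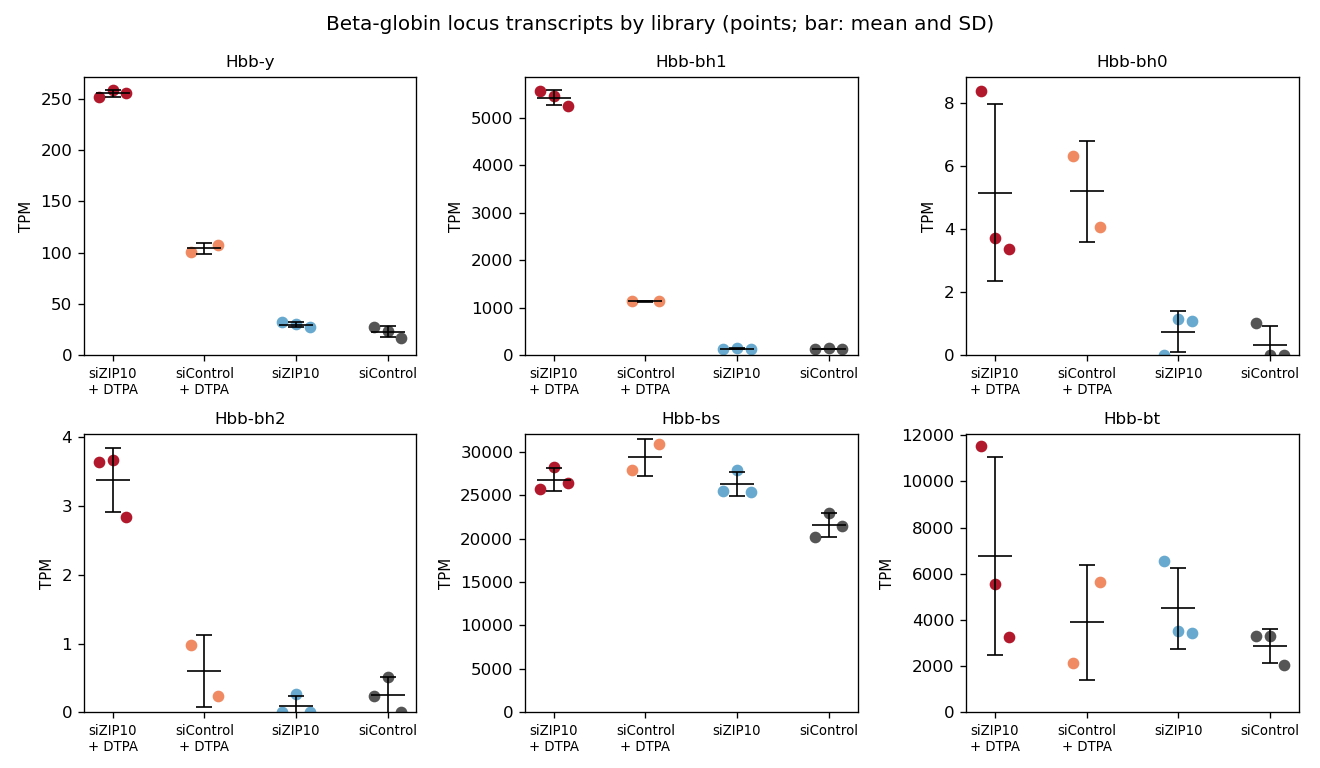
TPM of each of the 6 genes in every library (points) with the mean and SD of each group (bars), on axes that start at 0. Hbb-bh1 and Hbb-y are highest in siZIP10 plus DTPA and next in siControl plus DTPA, Hbb-bs is lowest in siControl, and Hbb-bt is spread widely within groups.

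Of the 4 members with at least 1 TPM in every group, 3 rose with both treatments (Hbb-bh1, Hbb-y, Hbb-bs), when 66.6% of all tested genes were called, 26.7% as higher and 39.9% as lower (33.8% and 33.5% after quantile normalization). With DTPA alone those 3 rose, when 28.8% of tested genes were called, 9.98% as higher and 18.8% as lower (14.0% and 15.9% with median-of-ratios scaling, 15.2% and 14.5% after quantile normalization). With the knockdown alone 2 were called higher, Hbb-y and Hbb-bs, when 30.6% of tested genes were called, 13.1% as higher and 17.5% as lower (17.7% and 14.9% after quantile normalization). None fell in these 3 comparisons with siControl. The median change of the 4 was 2.25 with both treatments, 1.31 with DTPA alone and 0.34 with the knockdown alone, against −0.08, −0.04 and −0.01 over all tested genes. The members include a pair that shares reads, so they are not 4 independent measures.

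Within the knockdown, DTPA raised Hbb-bh1 39.1-fold (5.28, SE 0.04, adjusted p = 2.92e-14, limma) and Hbb-y 8.49-fold (3.05, adjusted p = 1.09e-08), when 60.4% of all tested genes were called, 23.1% as higher and 37.3% as lower. Within DTPA, the knockdown raised Hbb-bh1 4.76-fold (2.25, SE 0.04, adjusted p = 4.51e-11) and Hbb-y 2.45-fold (1.29, SE 0.15, adjusted p = 3.24e-05), when 53.1% of tested genes were called, 21.3% as higher and 31.7% as lower. Hbb-bs and Hbb-bt were called in neither of these comparisons. The DTPA effect was larger with the knockdown than without it for Hbb-bh1 (interaction 2.29, SE 0.05, adjusted p = 2.33e-09) and for Hbb-y (0.89, SE 0.2, adjusted p = 0.00574), and smaller for Hbb-bs (−0.42, SE 0.09, adjusted p = 0.00494). For Hbb-bs it was not called after quantile normalization (−0.14, adjusted p = 0.543) or with no filter (adjusted p = 0.222). An interaction was called for 32.4% of tested genes, positive for 12.0% and negative for 20.4%. These comparisons share libraries with those against siControl.

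**Figure D2:**
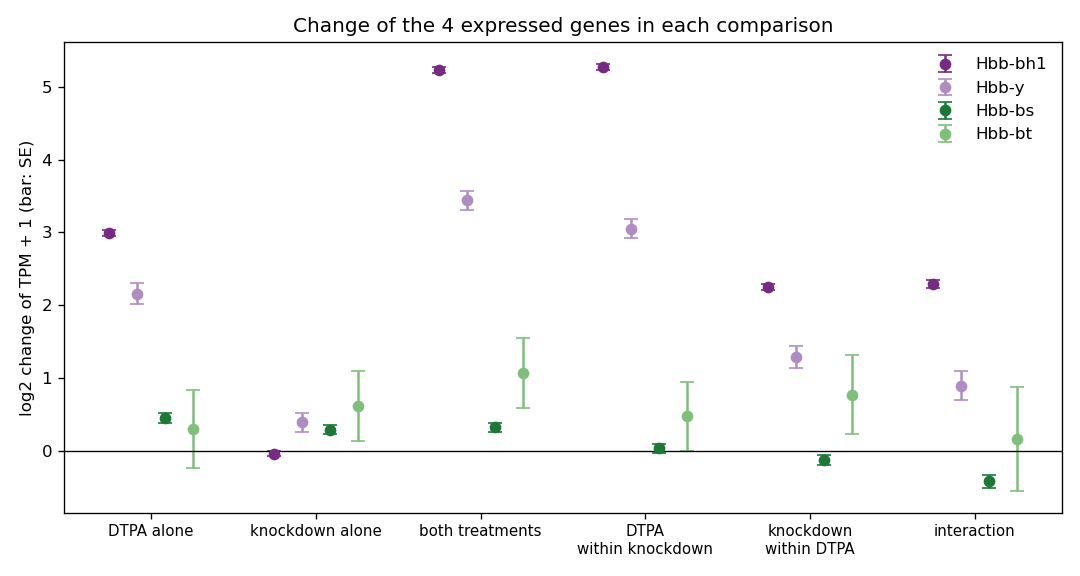
Log2 change of TPM + 1 (points) with the SE of the model (bars) for the 4 genes with at least 1 TPM in every group, in the 6 comparisons. Hbb-bh1 has the largest change where DTPA is added, 5.24 with both treatments and 2.99 with DTPA alone, and Hbb-bt has the widest bars.

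The make-up of the embryonic transcripts shifted as well. The ratio of Hbb-bh1 to Hbb-y in TPM was 20.6 to 22.1 in siZIP10 plus DTPA, 10.5 and 11.4 in siControl plus DTPA, 4.1 to 5.1 in siZIP10 and 4.98 to 8.22 in siControl. Hbb-bh1 and Hbb-y thus did not change in proportion: the DTPA groups lay above both others, and siZIP10 and siControl overlapped. No test is given for this ratio, which was chosen after the values were seen.

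The remaining members of the embryonic end of the locus were scarce. Hbb-bh2, a beta-like gene next to Hbb-bh1, stood at 2.84 to 3.66 TPM in siZIP10 plus DTPA (43 reads in all), 0.235 and 0.973 TPM in siControl plus DTPA (5 reads), 0 to 0.264 TPM in siZIP10 (1 read) and 0 to 0.515 TPM in siControl (3 reads). The double-treated libraries lay above all others, and the gene passed the filter on low values only through them. Hbb-bh0, for which 129 bases are annotated, stood at 3.36 to 8.38 TPM in siZIP10 plus DTPA (15 reads), 4.07 and 6.32 TPM in siControl plus DTPA (10 reads), 0 to 1.14 TPM in siZIP10 (2 reads) and 0 to 1.02 TPM in siControl (1 read). Its DTPA libraries lay above those without DTPA, and the pair of DTPA groups overlapped. Because the groups where they are high brought both genes past the filter, these values are a description and carry no test. In libraries with no read of a gene, 3 reads would have been 0.762 to 0.867 TPM for Hbb-bh2 and 3.34 to 3.75 TPM for Hbb-bh0, a limit that covers counting error only.

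**Figure D3:**
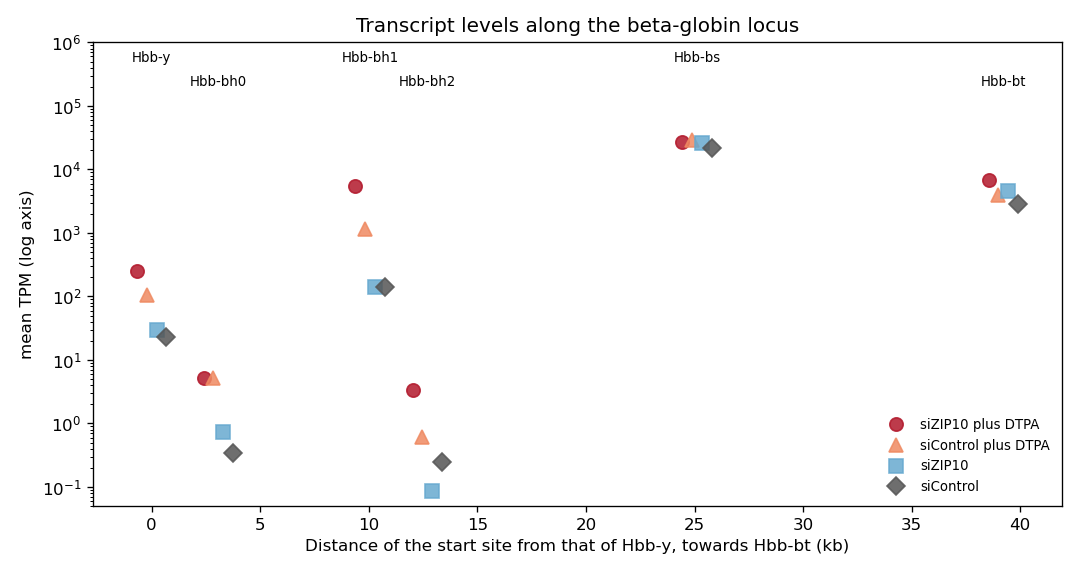
Mean TPM of each group (log axis) against the distance of each gene's start site from that of Hbb-y in kb, with the groups set slightly apart sideways so that they can be seen. At Hbb-y and Hbb-bh1 the order is siZIP10 plus DTPA, siControl plus DTPA and then the groups without DTPA. At Hbb-bh2 siZIP10 plus DTPA is highest, and the other groups rest on 1 to 5 reads each and overlap by library. At Hbb-bs and Hbb-bt the groups lie close together on this axis.

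The adult genes made up most of the beta-like transcript in every library and changed little next to the embryonic genes. Hbb-bs, which encodes an adult beta chain, stood at 25750.2, 28222 and 26391 TPM in siZIP10 plus DTPA, 27829.8 and 30822 TPM in siControl plus DTPA, 25528, 27856 and 25392 TPM in siZIP10, and 20180.1, 22921 and 21491 TPM in siControl. Every library of the 3 treated groups lay above all siControl libraries, and the treated groups overlapped with each other. Against siControl the log2 change was 0.32 with both treatments (SE 0.06, adjusted p = 0.000768, limma), 0.45 with DTPA alone (SE 0.07, adjusted p = 0.000666) and 0.29 with the knockdown alone (SE 0.06, adjusted p = 0.00475). These 3 calls were lost under quantile normalization, with changes of 0.19, 0.23 and 0.09, and with no filter on low values (adjusted p = 0.0884, 0.0819 and 0.216). Quantile normalization gives features of the same rank the same value, which limits changes at the top ranks, for Hbb-bs and the adult sum alike.

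Hbb-bt, the other adult beta gene, varied widely within groups. It stood at 11536, 5556 and 3249 TPM in siZIP10 plus DTPA, 2137 and 5661 TPM in siControl plus DTPA, 6538, 3523 and 3436 TPM in siZIP10, and 3312, 3318 and 2043 TPM in siControl. Its share of adult transcript was 11% to 30.9%, 7.13% and 15.5%, 11.2% to 20.4%, and 8.68% to 14.1% in the same order of groups. The siZIP10 libraries lay above the siControl libraries, and all other pairs of groups overlapped. No comparison was called in Hbb-bt (both treatments 1.07, SE 0.48, adjusted p = 0.0721). Voom on the recovered reads called both treatments (1.14, adjusted p = 0.00218), as did the fit without siZIP10 plus DTPA replicate 3 (1.5, adjusted p = 0.0179), and voom also called the knockdown within DTPA (0.82, adjusted p = 0.0421).

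Summed, adult transcript stood at 33568 ± 3827 TPM with both treatments, 33225 ± 4607 TPM with DTPA alone, 30758 ± 1706 TPM with the knockdown alone and 24422 ± 1574 TPM in siControl (SD). The adult sum rose by 0.45 with both treatments (SE 0.09, adjusted p = 0.00127), 0.44 with DTPA alone (SE 0.1, adjusted p = 0.00926) and 0.33 with the knockdown alone (SE 0.09, adjusted p = 0.0206), against siControl. With no filter the adjusted p was 0.0512 for both treatments and 0.17 for DTPA alone, and omitting replicate 2 of siControl plus DTPA gave 0.3 for DTPA alone (adjusted p = 0.109). The knockdown call failed in 6 of 22 other settings: no filter, quantile normalization, and the fits that omitted siControl replicate 1 or 3 or siZIP10 replicate 1 or 2 (0.3 to 0.32, adjusted p = 0.0605 to 0.0658).

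Embryonic transcript took a larger part of the beta-like total under DTPA, and the largest with both treatments. The embryonic share, Hbb-bh1 and Hbb-y over these and the adult pair, does not depend on the scaling between libraries. It was 13.5%, 14.5% and 15.7% in siZIP10 plus DTPA, 3.99% and 3.29% in siControl plus DTPA, 0.508%, 0.558% and 0.575% in siZIP10, and 0.709%, 0.64% and 0.674% in siControl. No groups overlapped. The difference of siZIP10 alone from siControl was −0.127 percentage points, and the embryonic sum was 168.8 ± 6.49 TPM in siZIP10 and 165 ± 5.03 TPM in siControl (0.03, SE 0.03, adjusted p = 0.568, limma). Averaged over both siRNAs, DTPA raised the share by 8.48 percentage points (two-sided exact permutation test within each siRNA, p = 0.005, the smallest that 200 arrangements allow). The knockdown effect averaged over both zinc levels was 5.39 points (exact permutation test, p = 0.1), which joins −0.127 points without DTPA to 10.9 points with it. Pairwise exact tests of 2 or 3 libraries a group cannot go below p = 0.1 and gave that value in all 5 pairs of groups compared. With Hbb-bs alone as adult transcript the share was 16.9% to 18.4%, 3.87% and 4.28%, 0.628% to 0.652%, and 0.732% to 0.824% in the same order of groups.

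**Figure D4:**
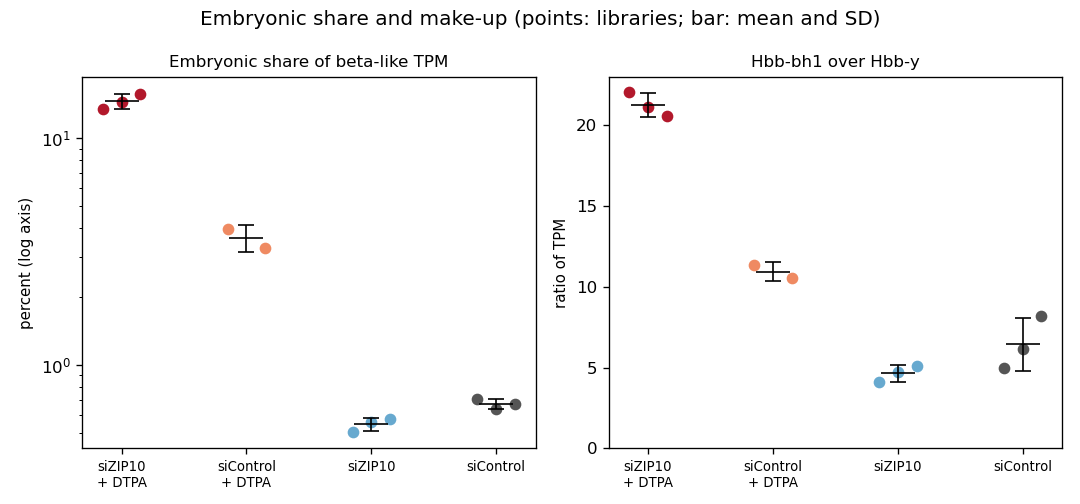
Left, the embryonic share of beta-like TPM in percent (log axis). Right, the ratio of Hbb-bh1 to Hbb-y. Points are libraries and bars the mean and SD of a group. The share is 13.5% to 15.7% in siZIP10 plus DTPA and 3.29% to 3.99% in siControl plus DTPA, and under 1% in both groups without DTPA.

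Alpha-like globin genes did not follow the beta-like total. In a list of 5 alpha-globin genes and Ahsp, 4 were tested, 1 was below the filter and Ahsp was not analysed here. With both treatments 3 of the 4 fell and 0 rose, with a median of −1.31 against −0.08 over all tested genes, of which 39.9% fell. Hba-a1, an adult alpha gene, stood at 4150 ± 93.3 TPM with both treatments and 11657 ± 1028 TPM in siControl (−1.49, adjusted p = 1.69e-09, limma), and its near-identical copy Hba-a2, whose reads could be divided wrongly, at 755 ± 119 and 2800 ± 1071 TPM (−1.83, adjusted p = 2.45e-05). Hbq1b, a theta-like gene, fell by 1.14 on the log2 scale (adjusted p = 4.99e-05). With DTPA alone 1 of the 4 rose, the embryonic zeta-like gene Hba-x, with 13.7 ± 0.0751 TPM in siControl plus DTPA and 5.41 ± 0.327 TPM in siControl (1.19, adjusted p = 0.000273), when 9.98% of all tested genes rose. With the knockdown alone 1 fell, again Hba-x (−0.87, adjusted p = 0.000955), when 17.5% of all tested genes fell. With both treatments Hba-x stood at 6.64 ± 1.61 TPM (0.23, adjusted p = 0.161). DTPA raised Hba-x within the knockdown too (1.11, adjusted p = 4.55e-05), when 23.1% of all tested genes rose. The knockdown lowered it within DTPA (−0.96, adjusted p = 0.000405), when 31.7% of all tested genes fell. Its pattern was thus not that of Hbb-bh1, which the knockdown raised within DTPA. These directions held under 3 other scalings and voom.

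The beta-like total was 35143 to 43088 TPM in siZIP10 plus DTPA, 31211 and 37724 TPM in siControl plus DTPA, 28995 to 32230 TPM in siZIP10 and 23660 to 26408 TPM in siControl. The alpha-like total was 4833 to 5105 TPM, 14320 and 14764 TPM, 12969 to 13751 TPM and 12518 to 16523 TPM in the same order. In TPM, beta-like exceeded alpha-like transcript 7.27- to 8.44-fold with both treatments, 2.11- and 2.63-fold with DTPA alone, 2.15- to 2.43-fold with the knockdown alone and 1.6- to 1.89-fold in siControl. The double-treated libraries lay far above the others and the siControl libraries below them. This ratio was chosen after the values were seen and carries no test. How reads that match both genes of the Hba-a1 and Hba-a2 pair, or of the Hbb-bs and Hbb-bt pair, were counted is not given. The size of the ratio therefore cannot be read as the balance of globin chains.

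**Figure D5:**
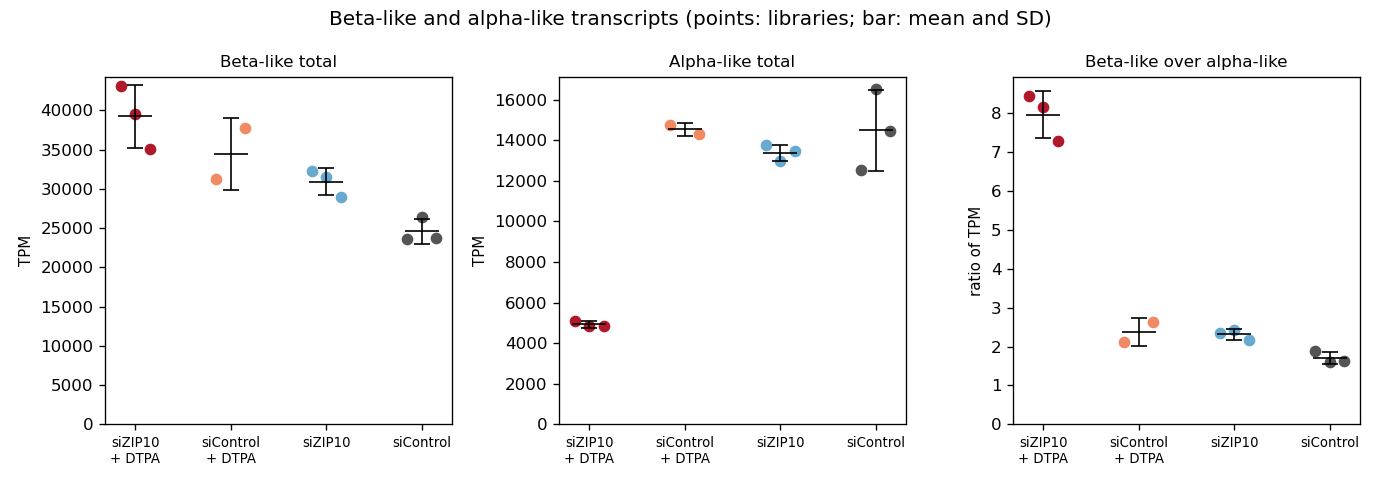
Beta-like total, alpha-like total and their ratio in every library (points) with the mean and SD of each group (bars). The ratio is 7.27 to 8.44 in siZIP10 plus DTPA and 1.6 to 2.63 in all other libraries.

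Factors that act at the locus were read from a list of 14 locus control region factors, all tested. With both treatments 9 fell and 5 rose (39.9% and 26.7% of all tested genes), with a median of −0.19 against −0.08 over all tested genes, and with median-of-ratios scaling 7 fell and 5 rose. The 4 with the largest changes against siControl all fell with both treatments: the erythroid regulator Gata1 (1019.6 ± 38.9 TPM with both treatments, 2067 ± 53.7 TPM in siControl, −1.02, adjusted p = 2.19e-09), the partner of its complexes Tal1 (−0.53), the locus control region binder Nfe2 (−0.66) and the chromatin remodeller Smarca4 (−0.66). The line lacks GATA1, so reads of Gata1 may come from the introduced form, and they were not told apart. With DTPA alone 4 fell and 2 rose (3 and 4 with median-of-ratios scaling), when 18.8% and 9.98% of all tested genes did. With the knockdown alone 5 fell and 0 rose, when 17.5% and 13.1% of all tested genes did. Nfe2 was 439 ± 0.593 TPM with DTPA alone and 382 ± 5.82 TPM in siControl (0.2, adjusted p = 0.000143), opposite in sign to its change with both treatments.

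Regulators of embryonic globin silencing, a list of 33 genes of which 30 were tested, fell more often than they rose against siControl. The same was true of all tested genes in the reported fit. After quantile normalization, however, more of all tested genes rose than fell in the 3 comparisons with siControl (33.8% and 33.5% with both treatments). In the list 8 rose and 16 fell with both treatments under that scaling. Most genes of the list are repressors, but Lin28b, Igf2bp1, Igf2bp3 and Hic2, a repressor of Bcl11a, are known from human cells to favour fetal globin. With both treatments Lin28b (−0.34), Igf2bp3 (−0.33) and Hic2 (−0.57) fell and Igf2bp1 (0.39) rose, and these 4 are named for that role after their values were seen. With both treatments 20 of the 30 fell and 6 rose (39.9% and 26.7% of all tested genes), with a median of −0.27. Under other scalings and voom 16 to 20 fell, when 33.5% to 39.1% of all tested genes did. With DTPA alone 11 fell and 3 rose, when 18.8% and 9.98% of all tested genes did. With the knockdown alone 11 fell and 1 rose, when 17.5% and 13.1% of all tested genes did. With median-of-ratios scaling, quantile normalization and voom 4 or 5 rose with the knockdown alone, when 15.7% to 17.7% of all tested genes did. The interaction was positive for 4 and negative for 3 of the list, when it was so for 12.0% and 20.4% of all tested genes. The largest falls with both treatments were of Uhrf1, which helps DNMT1 to maintain DNA methylation (3.81 ± 0.138 TPM against 29.5 ± 0.641 TPM in siControl, −2.66), and Mybl2, a cell cycle regulator (1.93 ± 0.369 against 16.4 ± 0.595 TPM, −2.58). Both also fell with DTPA alone (−1.41 and −1.26) and with the knockdown alone (−1.16 and −1.25). Any part of the listed genes in the embryonic globin values was not tested. Myb, which represses embryonic globin in definitive cells, rose to 8.4 ± 0.659 TPM with both treatments, against 1.23 ± 0.267 TPM in siControl (2.08, adjusted p = 6.17e-08), and Zbtb16, a zinc finger repressor, rose by 1.08 (adjusted p = 6.42e-06). Bcl11a, named here after its values were seen, was low throughout, with 3.27 ± 0.237 TPM with both treatments, 4.27 ± 0.203 TPM with DTPA alone, 5.98 ± 0.206 TPM with the knockdown alone and 5.76 ± 0.0152 TPM in siControl. It fell with both treatments (−0.66, adjusted p = 1.27e-05) and with DTPA alone (−0.36, adjusted p = 0.00735) and stood at 0.05 with the knockdown alone (adjusted p = 0.695).

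Markers of other cell types moved with the embryonic rise in double-treated cells. The 6 megakaryocyte markers summed to 34.8 to 36.4 TPM in siZIP10 plus DTPA, against 14.6 and 16.3 TPM in siControl plus DTPA, 9.81 to 11.4 TPM in siZIP10 and 10 to 11.4 TPM in siControl, with Ppbp at 0 in every library. The 6 mast cell and basophil markers summed to 20.9 to 23.2 TPM in siZIP10 plus DTPA, with Hdc at a mean of 21.6 TPM, against 0.832 to 2.6 TPM in the other groups, with Cma1, Ms4a2 and Fcer1a at 0. Of the 6 myeloid markers 4 were at 0 (Mpo, Elane, Ctsg, Itgam), with sums of 5.86 to 6.8 TPM with both treatments against 2.33 to 5.16 TPM elsewhere, and the 5 lymphoid markers, with Il7r at 0, had sums of 2.38 to 3.15 TPM against 0.296 to 1.61 TPM elsewhere. Of the 6 erythroid markers 5 fell with both treatments against siControl, from Tfrc, the transferrin receptor (−0.31), to Slc4a1, the band 3 anion exchanger (22.5 TPM against 445 TPM in siControl, −4.24). Alas2, the erythroid enzyme of heme synthesis, rose (2377 TPM against 2037 TPM in siControl, 0.22, adjusted p = 3.1e-05, limma). The part of these in the globin values was not tested.

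Among 1384 genes whose group means spanned at least 1 on the log2 scale, those most like the embryonic sum over the 11 libraries were Ctse (Pearson r = 0.996), Hist1h2al (0.996), Aqp3 (0.992), Mylk3 (0.992) and Mapt (0.99). Ctse, the protease cathepsin E, averaged 163 TPM with both treatments, 118 TPM with DTPA alone, 72.5 TPM in siZIP10 and 71.4 TPM in siControl, and Mylk3, a myosin light chain kinase, 78.8, 36.4, 15.3 and 17.7 TPM. Their changes with both treatments (1.18 and 2.1) were far below the 5.09 of the embryonic sum, since the correlation reads shape and not size. The adult sum had looser likenesses, 0.867 for A130006I12Rik and 0.809 to 0.851 for the next 4 genes. All 11 libraries are shared by these correlations, which describe a pattern and carry no p.

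Neighbouring genes were at or near 0 TPM with 1 exception. Within 100 kb of the outermost members, 17 other annotated genes were found in the files, 13 of them olfactory receptors, and 15 were at 0 in every library, including the pseudogene Hbb-bh3 between Hbb-bs and Hbb-bh2. Only Dnajc19-ps, a processed pseudogene that can share reads with its parent gene, reached a mean of 1 TPM, with 26.5 TPM with both treatments, 43 TPM with DTPA alone, 40.9 TPM in siZIP10 and 49.3 TPM in siControl.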

How the data were processed

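RNA of 12 libraries of differentiating G1E-ER4 cells was measured by sequencing of stranded mRNA libraries, per the labels' protocols. The deposited values are TPM per gene, made by the authors, and sum to 1e+06 in each library. The submitters' processing notes name HISAT2 2.1.0, Trimmomatic 0.33, FastQC, edgeR, featureCounts and the mm10 build. Not given in the sources used here are the annotation, the strand setting and how reads that match several genes were treated.

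The deposited TPM were put on the scale log2(TPM + 1), where changes of low genes come out too small. Tested were the 11379 genes that averaged 1 TPM or more in the 11 libraries. A model with 4 group means was fitted with limma 3.58.1 with a trend in R 4.3.3 (7 residual and 3.21 prior degrees of freedom), with two-sided p-values adjusted by Benjamini-Hochberg over all genes in each of 6 comparisons. Sums replaced their members in the table (11377 features). The embryonic share was tested by exact permutation of libraries. Multiplied by the exon lengths of GENCODE mouse release 21, 98.9% to 99.1% of values of up to 20 reads were whole reads within 0.1, which gave the depth and voom's input. Promoters came from RefSeq (GRCm38.p6); 4 of the 6 genes matched. Transcripts were compared with biopython 1.88. Tables and plots used pandas 2.3.3, matplotlib 3.10.9 and numpy 2.4.6 in Python 3.11.15.

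The named genes are the 6 members, the 4 tested genes of each list with the largest change against siControl, the 5 genes most correlated with each sum and neighbours of at least 1 TPM. Members and lists were chosen with earlier results of these data known. Alternatives were other pseudocounts (0.1), filters (none, 5 TPM), scalings (median of ratios, quantile, non-globin genes), no trend, voom, a replicate block, only the groups compared, the repeated library as labelled and each library left out.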

Additional observations from a re-analysis of the deposited data

Results flagged for a closer look

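The DTPA effect differed between knockdown and control cells, by the test of the interaction in limma, in 4 results. It was larger with the knockdown for the embryonic sum (interaction 2.16, SE 0.05, adjusted p = 2.23e-09), Hbb-bh1 (2.29) and Hbb-y (0.89), and it was smaller for Hbb-bs (−0.42, SE 0.09, adjusted p = 0.00494). For Hbb-bs, quantile normalization gave −0.14 (adjusted p = 0.543) and testing with no filter an adjusted p of 0.222, so that it was not called. The DTPA change of Hbb-bs was 0.03 with the knockdown (SE 0.06, adjusted p = 0.701) and 0.45 without it. Mitochondrial rRNA and markers of other cell types moved with the double-treated libraries, and their part in these values was not tested.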

How the results depend on the processing

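The embryonic sum kept its direction and its call in the 5 comparisons where it was called, in all of the 22 alternatives (21 for the interaction), and the same holds for Hbb-bh1 and Hbb-y apart from Hbb-y with the knockdown alone. With the repeated library used as labelled, the embryonic change with DTPA alone was 1.93 and Hbb-bh1 changed by 1.96, the repeated library being an siZIP10 one. Leaving out 1 library, the embryonic sum with the knockdown alone ranged over −0.00181 to 0.0506, and the adult sum over 0.302 to 0.386 with the knockdown alone, 0.297 to 0.581 with DTPA alone, −0.127 to 0.157 for the knockdown within DTPA and −0.46 to −0.176 for the interaction. The adult interaction was called only without siControl plus DTPA replicate 1, without siZIP10 plus DTPA replicate 1 and with voom (−0.28). With no filter the adult sum was not called for DTPA alone (0.439), the knockdown alone (0.333) or both treatments (0.455). Under quantile normalization it was 0 for the knockdown alone, because a feature of the same top rank gets the same value there, and 0.265 for DTPA within the knockdown, a call that voom also made (0.181). Among single genes, Hbb-bt turned sign for the interaction under quantile normalization (−0.0421), with the repeated library (−0.14) and without siControl plus DTPA replicate 1 or siZIP10 plus DTPA replicate 1 (range with 1 library left out −0.539 to 0.865). It also turned for DTPA alone without siControl plus DTPA replicate 2 (−0.4003 to 1.004) and for DTPA within the knockdown without siZIP10 plus DTPA replicate 1 (−0.0151 to 0.899). Hbb-bs turned for DTPA within the knockdown without siZIP10 plus DTPA replicate 2 (−0.00916 to 0.0723). Hbb-bh0 turned for the knockdown within DTPA with the repeated library (0.794) and without siControl plus DTPA replicate 1 or siZIP10 plus DTPA replicate 2 or 3 (−0.424 to 0.189), and for the interaction with the repeated library (0.409). Its changes rest on 0 to 8 reads a library and are a description only, since its high groups brought it past the filter.

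Replicate numbers did not pair the libraries: same-numbered libraries had deviations that correlated at −0.06 to 0.06. With a replicate block the DTPA effect on the embryonic share was 8.48 points with p = 0.0625, the smallest that exact permutation within numbers allows, so that it could not pass the threshold, and Hbb-bs was called for the knockdown within DTPA (−0.12, adjusted p = 0.0122). The number of genes called in each comparison stayed within 1.5 times that reported. siControl plus DTPA had 2 libraries, so that fits without either assume that the other varies like the remaining groups. Depth limits Hbb-bh0 and Hbb-bh2, with 0 to 17 reads a library. Where no cause is given above, the cause was not tested.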
